A study of Mus musculus with 6 samples.

Results

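Interferon-stimulated genes (ISGs) are genes that cells induce when an interferon binds its receptor. The 44 ISGs described here are a list of names, drawn up with earlier results of these libraries known. All 44 were among the 16440 genes of the deposited table and among the 14595 genes that passed the filter on low values. They were compared between c-Kit+ progenitors of acute promyelocytic leukemia (APL) and normal myeloid progenitors (MPs) of the bone marrow (BM), with 3 RNA-seq libraries per group.

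The normal MPs were Lin-Sca-1-c-Kit+ mouse BM cells, a mixed population that holds granulocytic, monocytic, erythroid and megakaryocytic progenitors. The APL progenitors came from the hMRP8-PML/RARα transgenic model, in which the human MRP8 promoter drives the fusion gene in myeloid cells. These leukemia cells had been labelled with GFP by a MigR1 retrovirus, passaged through syngeneic recipient mice and sorted as c-Kit+ cells, whereas the normal MPs are described with neither the transgene nor the retroviral label. The paper gives a sublethal dose of irradiation for the recipients of the labelling step, and recipients with or without such a dose for its transplants in general. It does not say whether a GFP gate left BM cells of the recipients out of these libraries. All libraries had the strain label FVB N/J, and no age, sex or drug treatment is attached to them. The design text calls the 3 libraries of a group biological replicates but does not say that they came from separate mice, so the p-values below measure the spread between libraries only.

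Type I and type III interferons act through the kinases JAK1 and TYK2 and a complex that holds STAT2 and IRF9, which binds interferon-stimulated response elements (ISREs) near gene starts. Interferon-γ acts through JAK1 and JAK2, and its targets often carry GAS elements. ISGs encode sensors of foreign RNA and DNA, enzymes that degrade or modify RNA, ubiquitin-like conjugation proteins and large GTPases, and hematopoietic cells hold many of them at a low level without infection.

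The stretches of promoter that hold the ISRE in 10 members are shown first, because members with and without it are compared below. Each runs 5′ to 3′ on the strand of its gene, was taken from RefSeq (GRCm38.p6), and has the ISRE letters in capitals. Not printed are Ifit3, Gbp2, Gbp7 and Irgm1, which also held the ISRE before the start, and Ifih1, Ddx58 and Eif2ak2, which held it after the start. None of these unprinted members passed both thresholds given below. The Oas1a and Oas1g elements overlap the same way and differ from the single element of Oas3, a gene 98481 bases from Oas1g. The Igtp and Irgm2 stretches are near copies.
Oas1a, chr5:120907526-120907565: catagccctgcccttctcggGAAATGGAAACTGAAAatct
Oas1g, chr5:120887614-120887651: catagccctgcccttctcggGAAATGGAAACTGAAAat
Oas3, chr5:120777705-120777754: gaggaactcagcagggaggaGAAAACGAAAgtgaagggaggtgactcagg
Isg15, chr4:156200855-156200916: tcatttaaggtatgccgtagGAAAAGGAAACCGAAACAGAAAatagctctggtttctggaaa
Ifit1, chr19:34640765-34640833: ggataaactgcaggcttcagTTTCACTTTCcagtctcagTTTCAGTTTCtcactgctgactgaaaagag
Gbp3, chr3:142559979-142560034: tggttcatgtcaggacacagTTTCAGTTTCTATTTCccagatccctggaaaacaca
Irgm2, chr11:58214893-58214942: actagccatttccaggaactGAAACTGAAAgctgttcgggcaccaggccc
Igtp, chr11:58199502-58199551: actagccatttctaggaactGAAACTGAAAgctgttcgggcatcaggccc
Rsad2, chr12:26456543-26456592: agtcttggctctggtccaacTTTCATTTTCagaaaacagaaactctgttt
Bst2, chr8:71537567-71537622: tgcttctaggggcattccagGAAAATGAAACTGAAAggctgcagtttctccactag

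The ISGs did not move in 1 direction in APL progenitors. Lgals3bp, Ifi44, Iigp1, Usp18, Oasl1 and Mx2 were more than 5-fold lower, whereas Oas1g was 15.5-fold higher and Gbp3 4.44-fold higher. The RNA helicases Ifih1, Ddx58 and Dhx58 stayed, like Adar and Eif2ak2, within a fold change of 1.5. Genes were called at an adjusted p under 0.05 with a fold change over 1.5, using limma on log2(scaled fragments + 1), with p adjusted over every gene tested by the Benjamini-Hochberg method. Scaled fragments are the deposited fragment estimates, in which 1 fragment was worth 0.867 to 1.23 depending on the library. By this rule 15 members were lower, where 24.4% of all genes tested were lower, and 10 members were higher, where 21.7% of all genes were higher. These are 34.1% and 22.7% of the members. In either direction 25 members were called, against 46.1% of all genes. The remaining 19 members were not called, 9 of them with an adjusted p under 0.05 but a smaller fold change, and an adjusted p under 0.05 alone was reached by 67.0% of all genes.

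The median log2 fold change (APL minus MP) was −0.07 over the members and −0.10 over all genes tested. The median size of the change, regardless of sign, was 0.88 over the members and 0.59 over all genes on the log2 scale. For 34 of the 44 members no APL library lay within the range of the MP libraries or the reverse, against 70.9% of all genes tested. APL was below MP for 18 of these members (39.8% of all genes) and above for 16 (31.1% of all genes). Each such member had an exact permutation p of 0.1, the smallest that 3 libraries against 3 allow. Scaling the libraries to the same total shifted the median of all genes from −0.10 to −0.23.

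**Figure D1:**
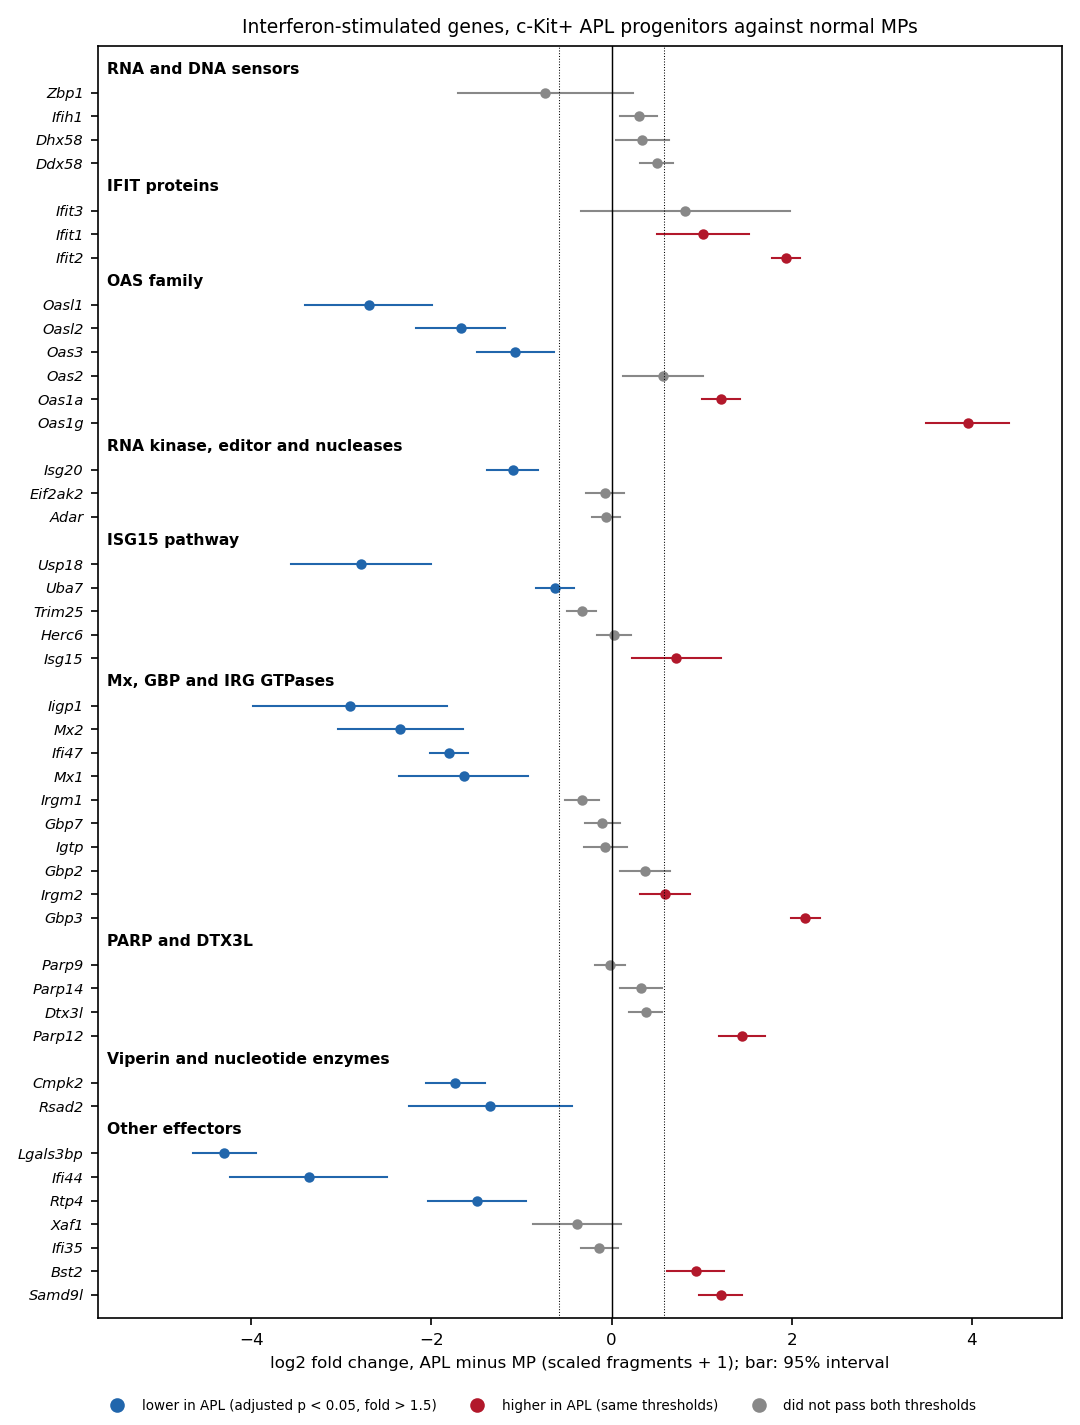
Log2 fold change (APL minus MP, scaled fragments + 1) of the 44 members by role, with the 95% interval from limma as a bar and dotted lines at a fold change of 1.5. Lower genes (blue, 15) and higher genes (red, 10) stand side by side in the OAS, ISG15, GTPase and other effector groups, and no sensor lies beyond both thresholds.

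Total fragments before scaling lay between 22976594 and 26931690 in the MP libraries and between 20608283 and 28382066 in the APL libraries. MP 2 was the lowest MP library for 28 of the 44 members, against 36.4% of all genes tested, and APL 2 was the highest APL library for 24 members, against 38.8%. Kit, the sorting marker, was present in all libraries, with 10668 ± 272 scaled fragments in MP and 5929 ± 132 in APL (SD, n = 3). It was called lower, at a log2 fold change of −0.85. The other progenitor markers examined also differed, with Cd34 lower (−6.31) and Fcgr3 (1.89) and Ly6a (0.68) higher. The call of Ly6a was lost in 9 of 18 alternative fits. Markers of other lineages are counted here beside the shares over all genes tested, of which 24.4% were lower and 21.7% higher. All 5 tested erythroid markers were lower in APL, with summed scaled fragments of 8132 to 10003 in MP and 96.6 to 185 in APL. Megakaryocytic markers were lower for 4 of 5 (2433 to 3262 in MP, 222 to 302 in APL). Mast cell and basophil markers were lower for 4 of 5 (4127 to 5508 in MP, 733 to 884 in APL), while Mcpt8 was higher. Conventional dendritic cell markers were lower for 2 of 5, Flt3 and Zbtb46 (1911 to 2853 in MP, 98.8 to 118 in APL). Flt3 made up most of this sum in MP, and without it the others summed to 347 to 405 in MP and 63.0 to 87.3 in APL. Itgax and Cd209a lay above MP in every APL library but were not called. Granulocytic progenitor markers were higher in APL for 3 of 5 (307335 to 343484 in MP, 771407 to 923993 in APL). Maturing neutrophil markers summed to 55158 to 98522 in MP and 205023 to 211566 in APL (2 of 6 higher, 1 lower). S100a8 and S100a9 were higher and Ltf lower, and without S100a8 the sums were 33285 to 64105 in MP and 73344 to 79697 in APL. Macrophage markers summed to 763 to 1021 in MP and 2121 to 2144 in APL (2 of 6 higher, 2 lower). Here Vcam1 and Emr1 were higher, whereas C1qa and Mertk, both low, were lower. B cell markers summed to 333 to 428 in MP and 9.43 to 18.2 in APL, with 2 of 3 lower. The part of these cell types in the ISG values was not tested, and in bulk libraries fewer cells of a type cannot be told apart from less RNA per cell.

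The RNA and DNA sensors were not called in either direction. Ifih1 (MDA5), which detects long double-stranded RNA, had 532, 456 and 499 scaled fragments in MP 1 to MP 3 and 617, 618 and 592 in APL 1 to APL 3. Ddx58 (RIG-I), which detects RNA with a 5′ triphosphate, had 471, 477 and 463 in MP and 673, 670 and 652 in APL. For Dhx58 (LGP2), a regulator of these helicases, the values were 303, 253 and 333 in MP and 340, 392 and 389 in APL. All APL libraries lay above all MP libraries for these 3 helicases, with log2 fold changes of 0.30, 0.50 and 0.34 and adjusted p of 0.0161, 4.66e-04 and 0.0428. Their fold changes of 1.23, 1.41 and 1.27 were under the threshold. Zbp1, a sensor of Z-form nucleic acids, had 24.4, 7.62 and 18.9 scaled fragments in MP and 7.07, 8.67 and 11.1 in APL, so that MP 2 lay within the APL range (log2 fold change −0.73, adjusted p = 0.156). Without MP 2 its log2 fold change was −1.20 and passed both thresholds (adjusted p = 0.0142).

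Of the IFIT proteins, which bind viral RNA and block its translation, Ifit2 and Ifit1 were higher in APL. Ifit2 (gene 15958, chr19:34550693-34576534 on GRCm38) had 611, 574 and 574 scaled fragments in MP and 2256, 2214 and 2272 in APL. This was a log2 fold change of 1.94 ± 0.07 (SE, adjusted p = 4.83e-08), with little spread in either group. Ifit1 had 22.5, 19.7 and 22.5 in MP and 53.3, 41.1 and 40.2 in APL, a log2 fold change of 1.01 ± 0.22 (adjusted p = 0.00342). Ifit3 had 1.87 to 4.51 scaled fragments in MP and 3.53, 4.07 and 13.6 in APL, and was not called. In addition, 51.5% of the 50-base words of Ifit3 also occur in transcripts of other genes, so that its value is uncertain.

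The OAS family split. OAS1, OAS2 and OAS3 proteins make 2-5A, which activates RNase L, while the OASL proteins are related members. Oas1g (gene 23960, chr5:120876141-120887598) had 21.4, 16.8 and 15.1 scaled fragments in MP and 266, 338 and 265 in APL. All 3 APL values were more than 10 times any MP value, and the log2 fold change was 3.96 ± 0.20 (adjusted p = 3.88e-07). Oasl1 went the other way, from 81.5, 42.8 and 64.0 in MP to 7.07, 7.80 and 11.1 in APL, a log2 fold change of −2.70 ± 0.31 (adjusted p = 6.13e-05). Its neighbour Oasl2 had 172, 134 and 168 in MP and 40.1, 64.1 and 44.4 in APL, with a log2 fold change of −1.67 ± 0.22 (adjusted p = 1.42e-04). Oas1a was higher, from 370 to 421 in MP and from 863 to 980 in APL (log2 fold change 1.22). Oas3 was lower, from 100 to 111 in MP and from 43.6 to 58.9 in APL (log2 fold change −1.07).

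The Oas1a and Oas1g values depend on how reads were divided between them, since 53.0% of the 50-base words of Oas1a and 50.6% of those of Oas1g are shared, mainly with each other. The promoters of this pair are also alike, with 212 of the 250 bases before the start identical (84.8%), against 44.8% between Oas1a and Oas3. Oas2, which lies 3248 bases from Oas3 in the table's loci, overlapped between the groups (85.7 to 126 in MP, 126 to 165 in APL) and was not called at a fold change of 1.48. It passed both thresholds as higher without MP 1 (log2 fold change 0.73) and without APL 3 (0.69), and with all 6 libraries after median-ratio scaling (0.63) and quantile normalization (0.80).

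Among the genes for an RNA kinase, an RNA editor and a nuclease, only Isg20 was called. Isg20, a 3′ exonuclease of single-stranded RNA, had 373, 374 and 465 scaled fragments in MP and 192, 183 and 186 in APL. The APL libraries were all under the lowest MP library, at a log2 fold change of −1.10 ± 0.12 (adjusted p = 5.54e-05). Eif2ak2 (PKR), the kinase that halts translation on double-stranded RNA, and Adar (ADAR1), which edits adenosine in RNA, overlapped between the groups. Their 95% intervals of the log2 fold change were −0.29 to 0.14 and −0.22 to 0.09. The table gives Adar the same locus as another gene, Chrnb2.

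The ISG15 pathway attaches the ubiquitin-like protein ISG15 to other proteins, and its parts moved apart. Usp18 (gene 24110, chr6:121245905-121270917), which removes ISG15 and also restrains the type I receptor, had 122, 97.1 and 120 scaled fragments in MP and 10.6, 27.7 and 12.3 in APL. This fall had a log2 fold change of −2.78 ± 0.34 (adjusted p = 9.74e-05), and APL 2 was more than 2 times the other APL libraries. Isg15 itself had 48.7, 36.2 and 55.9 in MP and 76.6, 85.0 and 69.1 in APL, a log2 fold change of 0.72 ± 0.22 (adjusted p = 0.0166). The call of Isg15 rested on single libraries: without MP 2 the log2 fold change was 0.55 (adjusted p = 0.0516), and without APL 2 it was 0.64 (adjusted p = 0.0643). Uba7, the E1 enzyme that activates ISG15, fell from 1234, 1133 and 1412 in MP to 782, 841 and 807 in APL. Its log2 fold change of −0.63 ± 0.09 (adjusted p = 3.19e-04) was close to the fold threshold, and without MP 3 it was −0.55 and under it. The ligases Herc6 and Trim25 were not called, with log2 fold changes of 0.03 and −0.33.

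The interferon-induced GTPases act on viruses (Mx proteins) and on vacuoles of bacteria and parasites (GBP and IRG proteins). Of 10 members, 4 were lower, 2 higher and 4 not called, where 24.4% of all genes were lower and 21.7% higher. Iigp1 (Irga6) had 29.0, 15.2 and 25.3 scaled fragments in MP and 1.18, 5.20 and 1.23 in APL, which is 1 to 6 fragments per APL library before scaling. Its log2 fold change was −2.91 ± 0.47 (adjusted p = 5.62e-04), a size that depends on the added 1 because so few APL fragments were counted. Mx2 had 49.6, 26.9 and 46.5 in MP and 7.07, 7.80 and 6.17 in APL, a log2 fold change of −2.35 ± 0.30 (adjusted p = 1.38e-04). Mx1, next to it on chromosome 16, had 16.0 to 27.2 in MP and 4.71 to 7.80 in APL (log2 fold change −1.64). Ifi47 (Irgd) had 1273 to 1529 in MP and 381 to 401 in APL (3.49-fold lower), under a locus that the table also gives to Olfr56 and Tgtp2, so that fragments could have been divided among them.

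The GTPases also held the second largest rise among the members. Gbp3 (gene 55932, chr3:142560051-142573212) had 606, 605 and 648 scaled fragments in MP and 2647, 2845 and 2768 in APL, a log2 fold change of 2.15 ± 0.07 (adjusted p = 3.39e-08). Its neighbours on chromosome 3, Gbp2 and Gbp7, were not called, with log2 fold changes of 0.37 and −0.10. Irgm2 was just past the fold threshold, with 151 to 176 in MP and 234 to 259 in APL (fold change 1.51). From 0.59 in all libraries, the log2 fold change went to 0.54 without MP 2 and 0.55 without APL 2, both under the threshold. Igtp (Irgm3), 7383 bases from Irgm2 and with 77.6% of the promoter bases identical, overlapped between the groups (log2 fold change −0.07). Irgm1 lay below MP in every APL library at a log2 fold change of −0.32, a fold change of 1.25.

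**Figure D2:**
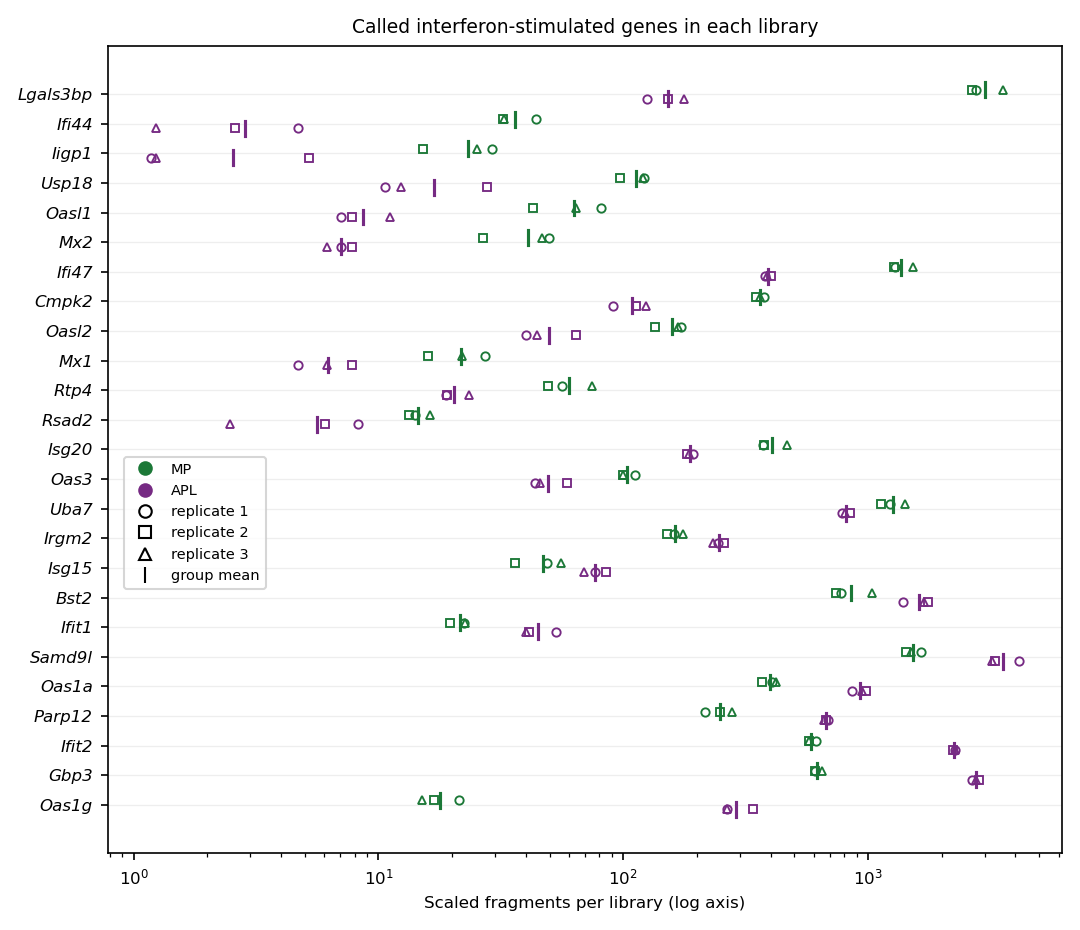
Scaled fragments (log axis) of the 25 called members in each library, with MP in green, APL in purple, symbols for replicates and a vertical line at each group mean (n = 3 libraries). The groups do not overlap for any of the 25 genes, which were picked by their difference between these same libraries. Of all genes tested, 70.9% do not overlap. Ifi44 and Iigp1 reach values near 1 in APL libraries.

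Of the PARP proteins, which attach or read ADP-ribose, and the ubiquitin ligase DTX3L, Parp12 was the gene called. It had 215, 248 and 279 scaled fragments in MP and 683, 676 and 663 in APL. This was a log2 fold change of 1.45 ± 0.11 (adjusted p = 5.25e-06). Parp14 and Dtx3l lay above MP in every APL library but at fold changes of 1.25 and 1.30. Parp9, the partner of DTX3L, had a 95% interval of the log2 fold change from −0.18 to 0.15. The table gives Parp9 and Dtx3l a single locus of chromosome 16.

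Rsad2 and Cmpk2, neighbours on chromosome 12 and 12761 bases apart, were both lower. Rsad2 (viperin), which makes a chain-terminating nucleotide, had 14.0, 13.3 and 16.2 scaled fragments in MP and 8.25, 6.07 and 2.47 in APL. The log2 fold change was −1.34 ± 0.40 (adjusted p = 0.0146), from 2 to 7 fragments per APL library before scaling. Cmpk2, a mitochondrial nucleotide kinase, had 376, 348 and 362 in MP and 90.7, 113 and 123 in APL, with a log2 fold change of −1.73 ± 0.15 (adjusted p = 8.31e-06). After quantile normalization Rsad2 was not called (log2 fold change −0.65, adjusted p = 0.183).

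The other effectors held the member with the largest change. Lgals3bp (gene 19039, chr11:118392751-118401931 on GRCm38), a secreted glycoprotein that binds galectins, had 2768, 2669 and 3572 scaled fragments in MP and 125, 153 and 178 in APL. Every APL library was more than 10-fold under the lowest MP library, at a log2 fold change of −4.30 ± 0.15 (19.7-fold, adjusted p = 5.33e-08). Ifi44 had 32.4 to 44.02 in MP and 4.71, 2.60 and 1.23 in APL, which is 1 to 4 fragments per APL library before scaling. Its fitted log2 fold change was −3.37 ± 0.38 (adjusted p = 6.05e-05), and like that of Iigp1 it depends on the added 1. Rtp4, a receptor-transporting protein, had 56.2, 49.5 and 74.9 in MP and 18.9, 19.1 and 23.5 in APL (log2 fold change −1.50 ± 0.24, adjusted p = 5.07e-04).

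Samd9l and Bst2 were the higher genes of this group. Samd9l, a growth-restraining antiviral factor of hematopoietic cells, had 1434 to 1650 scaled fragments in MP and 3223 to 4120 in APL (log2 fold change 1.21). Bst2 (tetherin), which holds budding virus at the membrane, had 740 to 1034 in MP and 1395 to 1754 in APL (log2 fold change 0.93). Bst2 lies on chromosome 8, where the median log2 fold change over 778 genes was 0.48, against −0.13 over the other chromosomes. The part of that shift in the Bst2 value was not tested. Xaf1 and Ifi35 were not called, with log2 fold changes of −0.39 and −0.14.

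The order of expression among the ISGs changed with these differences. FPKM, which corrects for transcript length, allows levels to be compared between genes. In MPs the highest mean FPKM among the members was that of Lgals3bp (55.8 ± 7.92, SD, n = 3), followed by Bst2 (47.9 ± 6.97) and Ifi47 (29.4 ± 3.01). The ranges of Lgals3bp and Bst2 were within their spread of each other. In APL progenitors Bst2 was first (93.3 ± 11.8 FPKM), followed by Gbp3 (32.8 ± 1.11), Samd9l (19.4 ± 3.13), Oas1a (18.1 ± 1.09) and Ifit2 (17.5 ± 0.31). The last 3 of these did not differ beyond their spread. Lgals3bp took rank 27 of 44 in APL at 2.84 ± 0.51 FPKM. Oas1g moved from rank 39 (0.32 FPKM) to rank 20 (5.20 FPKM), and Gbp3 from rank 15 (7.37 FPKM) to rank 2.

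**Figure D3:**
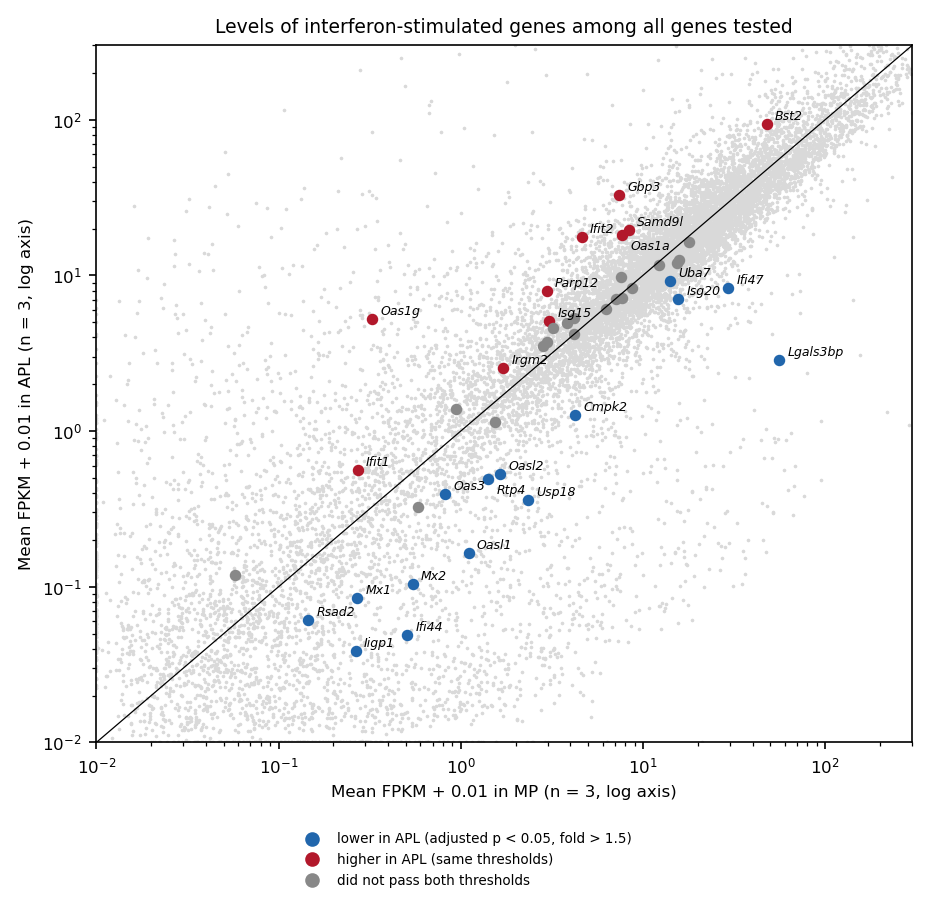
Mean FPKM + 0.01 in MP (x axis, log) and APL (y axis, log), n = 3 libraries per group, for all genes tested within the plotted range (light grey) and the 44 members, with the line of equal levels. Lgals3bp lies far under the line at 55.8 and 2.84 FPKM, Oas1g far above it at 0.32 and 5.20 FPKM, and Bst2 is the highest member in APL.

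Several members lie in clusters, and neighbours did not always share a call. Of 13 neighbouring pairs of members at most 100000 bases apart, 4 were called the same way: Rsad2 and Cmpk2, Mx1 and Mx2, and Oasl1 and Oasl2 as lower, and Oas1a and Oas1g as higher. In 1 pair, Oas3 and Oas1g, the calls were opposite. Both genes were not called in 2 pairs, and only 1 gene was called in the other 6 pairs. Ifit3 between Ifit1 and Ifit2, and Gbp2 and Gbp7 on either side of Gbp3, were of this last kind. Of the 50-base words of Mx2, 6.71% were shared with other transcripts, mainly those of Mx1, and the part of shared reads in the like calls of close copies was not tested.

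The promoters were searched for the ISRE letters, GAAA, any 2 bases and GAAA (on the other strand TTTC, any 2 bases and TTTC), in the window from 250 bases before to 50 bases after each RefSeq start. A window was at hand for 34 members and not for Dhx58, Zbp1, Oas2, Usp18, Mx1, Mx2, Iigp1, Parp9, Parp14 and Rtp4. The ISRE was present in 17 of the 34 (50%), against 3.99% of 27025 genes. Of the members called higher in APL, 7 of 10 held it (Ifit1, Oas1a, Oas1g, Isg15, Gbp3, Irgm2 and Bst2). Of the 15 members called lower, only 10 had a window, and 2 of these held the ISRE, Oas3 and Rsad2. The lower members Usp18, Mx1, Mx2, Iigp1 and Rtp4 had no window, whereas every higher member had one. Of the 19 members not called, 14 had a window and 8 of these held the ISRE, including the sensors Ifih1 and Ddx58. These are counts of letters in a fixed window, and they were not tested between the calls.

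With the last A left out of this pattern, on either strand, 21 of the 34 promoters matched, against 9.76% of genes, as 8 of 10 higher, 3 of 10 lower and 10 of 14 not called. The GAS letters TTCNNNGAA, which read the same on both strands, were in 10 of 34 (29.4%), against 9.55% of genes. They were found in 4 higher members, 1 lower member (Isg20) and 5 not called, and in the promoters of Oas1a, Irgm2, Bst2, Gbp7, Igtp and Eif2ak2 they shared the window with an ISRE. The near-identical Igtp and Irgm2 stretches printed above belong to a gene that was not called and to one that was higher, so that the same letters were found with different calls. Irgm2 was only just past the fold threshold (fold change 1.51), and its call was lost in 7 of 18 alternative fits.

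**Figure D4:**
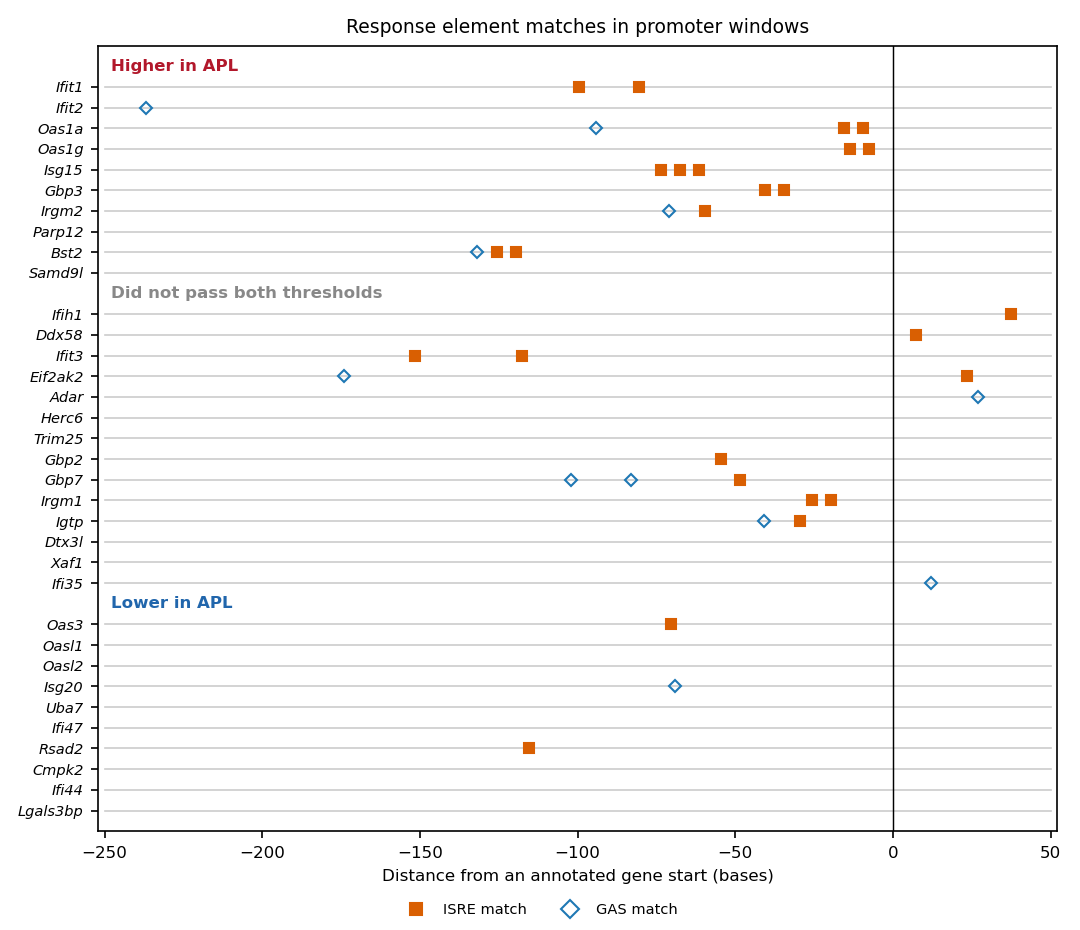
Position of ISRE matches (orange squares) and GAS matches (blue diamonds) relative to the gene start, in bases, in the promoter windows of the 34 members with a RefSeq window, grouped by call. ISRE matches are in 7 of the 10 higher genes, 2 of the 10 lower genes with a window and 8 of the 14 genes not called with a window. In all, 15 members were lower and 19 were not called.

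The genes that carry the interferon signal were examined as a list of 42, of which 33 were in the table. Of these, 10 were lower (30.3%) and 6 higher (18.2%), against 24.4% and 21.7% of all genes tested, and 17 were not called. The median log2 fold change was 0.09, against −0.10 over all genes. The genes of the interferon ligands on the list, and Ifnlr1, were not analysed here.

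Of the interferon receptor chains, 1 of 5 was called, where 46.1% of all genes tested were called in either direction. Ifnar1, Ifnar2, Ifngr1 and Ifngr2, the chains of the type I receptor and the interferon-γ receptor, were not called, with log2 fold changes of 0.44, 0.25, 0.55 and 0.09. The adjusted p of the first 3 was under 0.05 (5.52e-04, 0.0320 and 2.71e-04), and for Ifnar1 and Ifngr1 all APL libraries lay above all MP libraries, at fold changes of 1.35 and 1.46. Il10rb, a chain shared by the type III interferon and interleukin-10 receptors, was lower (log2 fold change −0.92 ± 0.11, adjusted p = 6.31e-05). Among the receptor kinases and STATs, Jak2 was lower, with 2720 to 2780 scaled fragments in MP and 1688 to 1823 in APL (log2 fold change −0.66). Jak1, Tyk2 and Stat2 were not called.

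The interferon regulatory factors (IRFs) were lower for 5 of 7, where 24.4% of all genes were lower, and higher for none, where 21.7% of all genes were higher. Irf8, a factor of monocytic and dendritic cell development, had 3093, 2519 and 3285 scaled fragments in MP and 87.2, 114 and 91.3 in APL. Its log2 fold change of −4.91 ± 0.14 (30.1-fold, adjusted p = 1.83e-08) was larger than that of any ISG member. Irf9, the DNA-binding part of the complex with STAT2, had 1014, 944 and 1118 in MP and 431, 453 and 425 in APL (log2 fold change −1.23 ± 0.09, adjusted p = 3.41e-06). Irf7, which amplifies the type I response and is itself an ISG, had 155, 101 and 160 in MP and 56.6, 49.4 and 56.8 in APL (log2 fold change −1.31 ± 0.21, adjusted p = 5.78e-04). Irf1, a target of interferon-γ, and Irf5 were also lower (log2 fold changes −0.83 and −3.08). Irf2 and Irf3 were not called, at −0.11 and −0.34. All 5 calls were kept in each of the 18 alternative fits. Of the 5 monocyte markers, Csf1r, Ly86 and Cx3cr1 were lower and Ccr2 and F13a1 higher, with summed scaled fragments of 6478 to 7742 in MP and 30059 to 32858 in APL. F13a1 made up most of this sum, and without it the other 4 summed to 2348 to 2799 in MP and 1699 to 1727 in APL. Their part in the IRF values, like that of the dendritic cell markers given above, was not tested.

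Of the adaptors and receptors that sense nucleic acids upstream of interferon, Tmem173 (STING) was lower, with 907 to 1076 scaled fragments in MP and 307 to 381 in APL (log2 fold change −1.55 ± 0.12, adjusted p = 4.00e-06). Mavs, the adaptor of RIG-I and MDA5, was also lower, with 945 to 1065 in MP and 399 to 476 in APL (log2 fold change −1.14 ± 0.10, adjusted p = 1.07e-05). The helicases upstream of it were not called, as given above. Tlr9 was called lower on 1 to 2 fragments per APL library before scaling, so no size is given. Of 5 markers of plasmacytoid dendritic cells, a cell type rich in Tlr9 and Tlr7, Siglech, Ccr9 and Ly6d had 3 fragments or fewer in all APL libraries. In MP these were also low, at 6 to 18, 12 to 23 and 1 to 6 fragments before scaling. Tcf4, the most abundant of the 5, was not called (mean of 1214 scaled fragments in MP and 873 in APL), and neither was Cox6a2. Tlr7, in contrast to Tlr9, was higher, with 74.0, 62.8 and 55.0 scaled fragments in MP and 920, 951 and 876 in APL. The log2 fold change of Tlr7 was 3.83 ± 0.14 (adjusted p = 5.10e-08). Its adaptor Myd88 was higher at a log2 fold change of 0.82.

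Negative regulators of the pathway were higher for 4 of 6 and lower for none, against 21.7% and 24.4% of all genes. Socs1, which is induced by interferon and blocks JAK kinases, had 18.7, 17.1 and 26.2 scaled fragments in MP and 135, 178 and 149 in APL (log2 fold change 2.85 ± 0.22, adjusted p = 5.52e-06). Socs3, which acts mainly on the interleukin-6 family and G-CSF receptors, had 25.3, 36.2 and 47.8 in MP and 145, 156 and 141 in APL (log2 fold change 2.03 ± 0.24, adjusted p = 7.57e-05). The phosphatases Ptpn1 and Ptpn6 were higher at log2 fold changes of 0.98 and 0.72. Pias1 and Ptpn2 were not called. Usp18, the other restraint on the type I receptor, was lower, as described above, so that the feedback genes Socs1 and Usp18 moved in opposite directions.

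**Figure D5:**
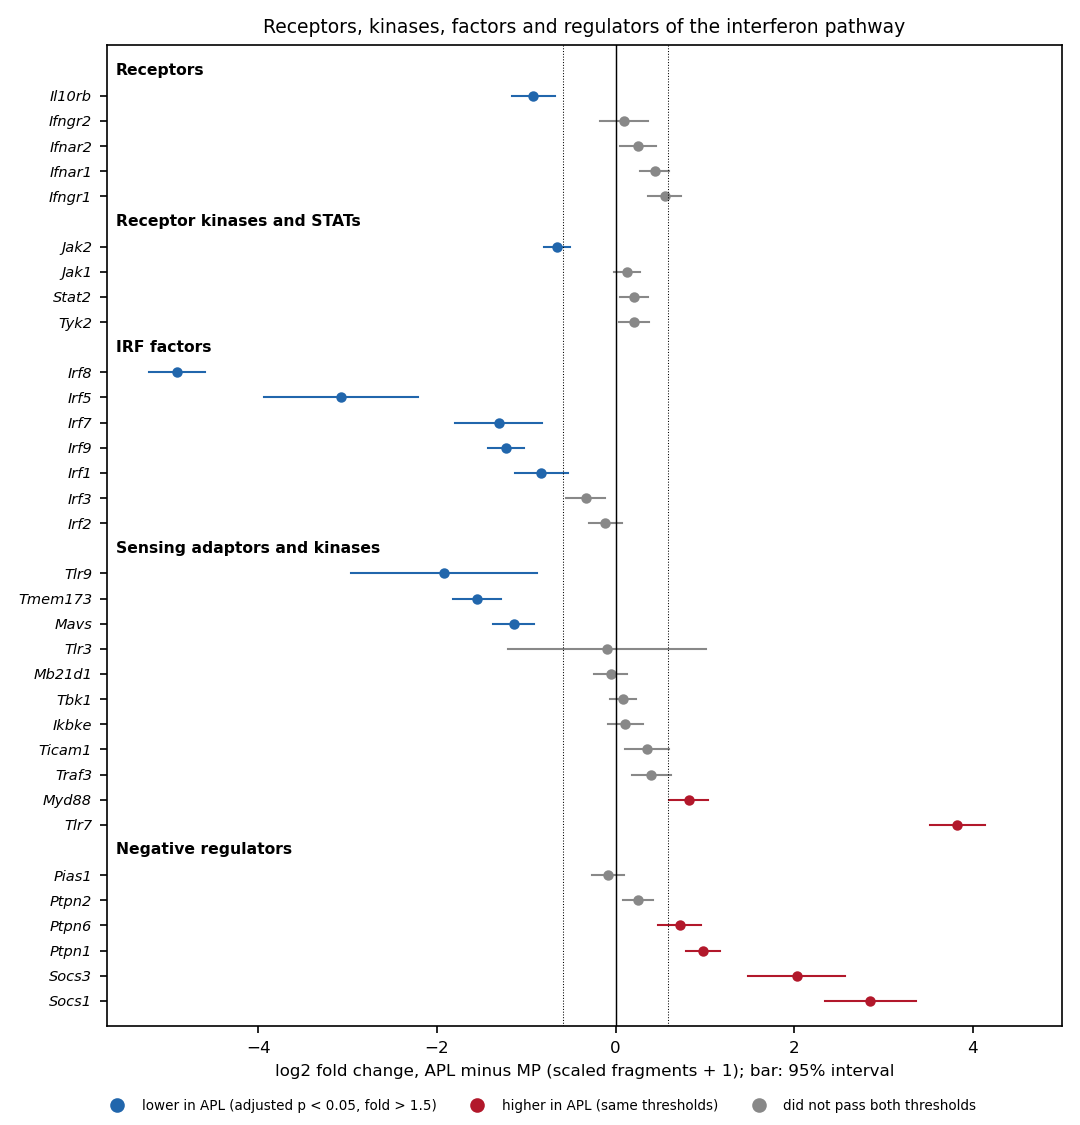
Log2 fold change (APL minus MP, scaled fragments + 1) of the 33 pathway genes in the table, with 95% intervals as bars, dotted lines at a fold change of 1.5 and colours as for the members. IRF factors lie to the left (5 of 7 lower, Irf8 at −4.91) and negative regulators to the right (4 of 6 higher, Socs1 at 2.85), while Ifnar1, Ifnar2, Ifngr1 and Ifngr2 lie within the dotted lines.

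A further list held 56 interferon-induced genes outside the 44, of which 48 passed the filter. Here 9 were lower (18.8%) and 17 higher (35.4%), against 24.4% and 21.7% of all genes, and 22 were not called. The higher genes with the highest mean FPKM were B2m, Ifitm2, Ifitm3 and Sp110. B2m, the light chain of MHC class I, had a log2 fold change of 0.99 under a locus that it shares with other genes in the table. Ifitm2 and Ifitm3, membrane proteins that block virus entry, were higher at log2 fold changes of 0.65 and 1.36, whereas their relative Ifitm6 was lower at −0.98. The call of Ifitm2 was lost without MP 1 (0.57) or MP 2 (0.52), with the same total (0.52), after quantile normalization (0.57) and with voom (0.52). Sp110 and Sp140 were 3.06-fold and 3.48-fold higher under a single locus. The lower genes with the highest mean FPKM were Ifitm6, Pnpt1, Pml and Nmi, the last 3 at log2 fold changes of −0.73, −0.70 and −0.73.

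Some other genes of this list were picked after their values were seen. Cxcl10, a chemokine induced by interferon-γ, had 16.9, 8.57 and 18.9 scaled fragments in MP and 609, 648 and 675 in APL. Its log2 fold change was 5.42 ± 0.27 (42.8-fold, adjusted p = 3.20e-07), under a locus that the table gives to 3 genes. Ifi203 and Ifi204, DNA-binding proteins of the interferon-inducible p200 family, were lower at log2 fold changes of −3.92 and −3.58. Slfn2 was higher at 2.22. The antigen-processing genes Psmb8, Psmb9, Psmb10, Tap1 and Tap2, targets of interferon-γ, were not called, with log2 fold changes from −0.06 to 0.13, although Nlrc5, the activator of MHC class I genes, was higher at 1.05. Nlrc5 lies on chromosome 8, with the median shift given above for Bst2, and the part of that shift in its value was not tested.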

How the data were processed

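RNA-seq libraries (TruSeq RNA kit, total RNA) of MP 1 to MP 3 and APL 1 to APL 3 were analysed from a table of 16440 genes. The authors deposited FPKM (fragments normalized to transcript length and library size) and a fragment signal per gene and library, which is an estimate of fragments scaled by a factor of each library. After division by that factor, 90.6% to 91.3% of nonzero values were whole within 0.01 of a fragment or 0.01% of the value, so count models were not used and the planned log-scale test was run. The submitters' processing notes name CASAVA 1.8, TopHat2 2.0.6 and build mm10, whereas the paper's methods name STAR, HTSeq-count and DESeq2 on mm9. The tool that made the table is not given in the sources used here.

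Genes with at least 1 scaled fragment in at least 3 of 6 libraries (14595) were fitted with limma 3.58.1 (lmFit, eBayes with trend) in R 4.3.3 on log2(scaled fragments + 1), MP against APL, two-sided, with Benjamini-Hochberg adjustment over all of them. A fold change is on that scale and understates the change of low genes. Errors of fold changes are SE and errors of levels are SD over 3 libraries. No pair of libraries agreed within counting noise. The script was tested on simulated data before use. Promoter windows and starts are those of RefSeq (GRCm38.p6), searched with Python 3.11.15 and Biopython 1.88. Words of 50 bases shared between transcripts came from an earlier mouse annotation, used for that alone. Figures were drawn with matplotlib 3.10.9.

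The members and lists were chosen with earlier results of these data known. Values in every library are given for called members among the 3 largest changes of a role group and for all members of a group without a call. Of the pathway and further lists, up to 4 called genes per role and direction with the highest mean FPKM are named, plus the factors and receptors that act on the members. 1 further gene was left out of the pathway list and its counts and is not reported here. The alternative fits were other filters, pseudocounts, scalings, FPKM, voom, the replicate number as a block, and each library left out. The fit of log2(FPKM + 0.1) was added after the data were seen. A fold change of 2 and no adjustment of p were applied to the main fit, for the counts of called genes alone.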

Additional observations from a re-analysis of the deposited data

How the results depend on the processing

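Each member was refitted under 18 alternatives, which gave 789 values: 758 kept direction and side of the thresholds, 20 lost and 6 gained the call, and 5 changed sign. Of the 25 called members, 15 kept the call in all 18 (8 lower, 7 higher), as did 13 of the 19 not called. The sign changes were in genes near 0: Herc6 with the same total (−0.10), voom (−0.10) and without a library (−0.0015 to 0.076), and Adar (0.00013) and Parp9 (0.044) after median-ratio scaling. The members' median was −0.20 with the same total and −0.20 with voom, where that of all genes was −0.23 in both. Members called lower were 8 with log2(FPKM + 1), whose added 1 is large beside low FPKM, and 15 with log2(FPKM + 0.1). The former lost Ifit1, Oas3, Uba7, Mx1, Mx2, Iigp1, Irgm2, Rsad2 and Ifi44. Irgm2 was lost in 7 alternatives. At a fold change of 2, 3 pathway genes were higher, and 4 of the further list were lower and 11 higher. Of all genes, 16.6% were then lower and 14.9% higher. Among the called members, Uba7 (lower) and Isg15, Irgm2 and Bst2 (higher) did not reach a fold change of 2. Of these, Bst2 had kept its call in all 18 alternatives. Leaving out each library gave 14 to 16 members lower and 8 to 11 higher.

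The replicate numbers did not pair the libraries (correlations of same-numbered deviations 0.26, −0.13 and 0.25). With them as a block, 15 members were lower and 10 higher, all of them called without it. Precision for Iigp1, Ifi44 and Rsad2 is limited by APL libraries with 1 to 7 fragments before scaling. For Mx1, Mx2 and Oasl1 it is limited by APL libraries with 4 to 9.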
